A study of Mus musculus with 10 samples.

Results

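Cxcl9, Cxcl10 and Cxcl11 encode the chemokines that share the receptor CXCR3. They were chosen by gene name, for their shared receptor, with earlier results of these data known, as were the gene lists below. They are 3 of the 54532 genes in the deposited count table, and all 3 had enough reads to be tested. Their levels were compared between hearts of 8-week-old C57BL/6 mice that had received saline and hearts taken 24 h after lipopolysaccharide (LPS), the outer membrane component of Gram-negative bacteria used to model endotoxin shock. Each group holds 5 libraries, which the labels number as mice. No genetic change is named for either group, with dose, sex and batch not given in the sources used here. Labels and count table give the time as 24 h. Further deposited tables hold the same LPS values under columns named for 3 h, so the files do not settle the time. LPS models exposure to endotoxin, not infection with live bacteria.

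CXCL9 (also called MIG), CXCL10 (IP-10) and CXCL11 (I-TAC) are small secreted proteins that draw activated T helper 1 cells, CD8 T cells and natural killer cells towards inflamed tissue. Interferon-γ turns all 3 genes on. Cxcl10 also answers to type I interferons and to NF-κB, so that it can be made before lymphocytes arrive, whereas Cxcl9 depends more on interferon-γ. Endothelial cells, fibroblasts, macrophages and cardiomyocytes can all make them.

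The libraries held between 14607969 and 17012372 counted reads, of which mitochondrially encoded genes took 22.3% to 31.2%. Cardiomyocyte markers (8 genes, among them Myh6 and Tnnt2) summed to between 41100 and 49400 CPM (counts scaled to library size) in saline and between 43300 and 47800 CPM in LPS libraries, so the libraries match the heart label. One library stood apart from its group. On principal component 1, computed on the 1000 genes of highest variance and holding 91.0% of it, saline replicates 1 to 4 lay between -67.0 and -55.1, LPS libraries between 43.7 and 55.0, and saline replicate 5 at -0.563. The comparisons of the ligands are therefore given with and without saline replicate 5.

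The 3 genes lie side by side on the minus strand of mouse chromosome 5 (GRCm38) within 44.1 kb. Cxcl9 (ENSMUSG00000029417) spans chr5:92321347-92328079, Cxcl10 (ENSMUSG00000034855) chr5:92346638-92348889 and Cxcl11 (ENSMUSG00000060183) chr5:92359544-92365485. GENCODE M21 gives them up to 4, 4 and 5 exons. It classes mouse Cxcl11 as a polymorphic pseudogene, a gene that codes for protein in some strains and not in others, and C57BL/6 is known as a strain that makes no functional CXCL11, so its reads stand for RNA.

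RefSeq (GRCm38.p6) gave the start region of 2 of the 3 genes. The 250 bases before the start are shown for each because factors of the interferon and NF-κB routes are known to bind in the promoters of these genes. The window is chr5:92328080-92328329 for Cxcl9 and chr5:92348890-92349139 for Cxcl10, both written 5′ to 3′ on the minus strand, with motif matches in capitals.
Cxcl9: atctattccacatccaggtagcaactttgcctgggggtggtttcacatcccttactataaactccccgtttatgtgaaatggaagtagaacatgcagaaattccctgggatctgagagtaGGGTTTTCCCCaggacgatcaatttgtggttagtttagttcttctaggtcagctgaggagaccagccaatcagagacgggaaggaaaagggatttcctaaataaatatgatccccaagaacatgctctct
Cxcl10: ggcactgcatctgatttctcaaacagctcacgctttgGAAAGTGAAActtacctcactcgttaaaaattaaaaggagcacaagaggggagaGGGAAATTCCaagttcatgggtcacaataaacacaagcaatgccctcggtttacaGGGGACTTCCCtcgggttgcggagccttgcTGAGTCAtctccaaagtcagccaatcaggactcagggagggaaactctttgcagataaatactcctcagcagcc
Both strands were searched for an interferon-stimulated response element (ISRE, GAAA, any 2 bases, then GAAA again), an interferon-γ-activated site (GAS, TTCNNNGAA), an NF-κB site (GGG, any 5 bases, then CC) and an AP-1 site (TGANTCA), motifs chosen after the sequences had been seen. The Cxcl10 window held an ISRE match 213 to 204 bases before the start, an NF-κB match at 159 to 150, overlapping NF-κB matches at 104 to 94 and an AP-1 match at 74 to 68. Among the motifs searched, the Cxcl9 window held only overlapping NF-κB matches, at 130 to 120. Sites with other letters were not searched for and would be missed. Over 32851 mouse promoter windows of the same length, 2.98% held the ISRE letters, 7.02% the GAS letters, 45.8% the NF-κB letters and 6.75% the AP-1 letters. A match is a description of the letters and was not tested for binding.

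In hearts after LPS, all 3 ligands were higher in each of the 5 libraries than in any saline library. Cxcl9 and Cxcl11 rose past the test's threshold with all libraries in, and Cxcl10 did so in the same test only once saline replicate 5 was left out. Among all 13864 tested genes, the LPS libraries lay wholly above the saline libraries in 14.3% and wholly below in 14.1%. The share past the threshold was 39.9%, with 18.9% rising. Those wholly above were 18% and those rising 21% without saline replicate 5, and all 3 ligands were among them. With all libraries in, the edgeR log2 fold changes were 4.48 for Cxcl9, 4.32 for Cxcl10 and 5.58 for Cxcl11. Mean levels in saline and LPS hearts were 63.9 and 1423 CPM for Cxcl9 and 153 and 3062 CPM for Cxcl10. For Cxcl11 they were 2.3 and 108 CPM. Much larger ratios came from leaving out saline replicate 5, a library set apart in these same data. Against saline replicates 1 to 4, pooled reads scaled to library size were 107-fold higher for Cxcl9, 3830-fold for Cxcl10 and 7620-fold for Cxcl11.

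Cxcl10 stood at 0.574, 1.95, 0.280, 0.347 and 763 CPM in saline replicates 1 to 5, and at 4082, 3405, 2127, 3572 and 2124 CPM in LPS replicates 1 to 5. It was close to silent in 4 saline hearts, with 5 to 35 reads each, and among the most abundant transcripts in LPS hearts, where it ranked between 21st and 31st of all genes by reads. The groups did not overlap, but saline replicate 5 reached 24.9% of the LPS mean. The log2 fold change was 4.32 ± 2.25 (SE) with an adjusted p of 0.169 in edgeR's quasi-likelihood test, so the difference did not pass the threshold of 0.05. With the same libraries it passed in DESeq2 (4.35, adjusted p = 0.0285) and in limma voom (10.27, adjusted p = 0.000994). Leaving out saline replicate 5 made the edgeR value 11.91 ± 0.61 (adjusted p = 6.48e-07, edgeR), a gain of 3830-fold in pooled reads with a 95% counting interval of 2960 to 5060. That interval covers counting error only, not the spread between hearts.

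Cxcl9 stood at 8.19, 21.5, 12.2, 9.96 and 268 CPM in saline replicates 1 to 5, and at 1805, 1605, 657, 2212 and 836 CPM in LPS replicates 1 to 5. Unlike Cxcl10 it was plainly present in every saline heart, with 157 or more reads, and again the groups did not overlap. It rose by 4.48 ± 1.24 on the log2 scale (SE, adjusted p = 0.0199, edgeR), and by 6.78 ± 0.58 (adjusted p = 2.99e-05) without saline replicate 5. The pooled ratio to saline replicates 1 to 4 had a counting interval of 100 to 114, which again leaves out the spread between hearts.

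Cxcl11 had 0, 1, 0, 0 and 193 reads in saline replicates 1 to 5, and 2162, 1573, 910, 1844 and 848 reads in LPS replicates 1 to 5. In CPM the LPS hearts held 150, 122, 55.9, 151 and 61.7, and saline replicate 5 held 11.5. A single read in 4 saline hearts means that Cxcl11 was at the limit of detection there, since 3 reads, the number a count of 0 allows, amount to between 0.157 and 0.246 CPM per library. It rose by 5.58 ± 1.37 on the log2 scale (SE, adjusted p = 0.0120, edgeR). Without saline replicate 5 the fitted value was 12.28 ± 0.79 (adjusted p = 2.56e-06), but with 1 read behind the control its size is loosely known, and the counting interval of the 7620-fold ratio ran from 1370 to 301000.

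**Figure D1:**
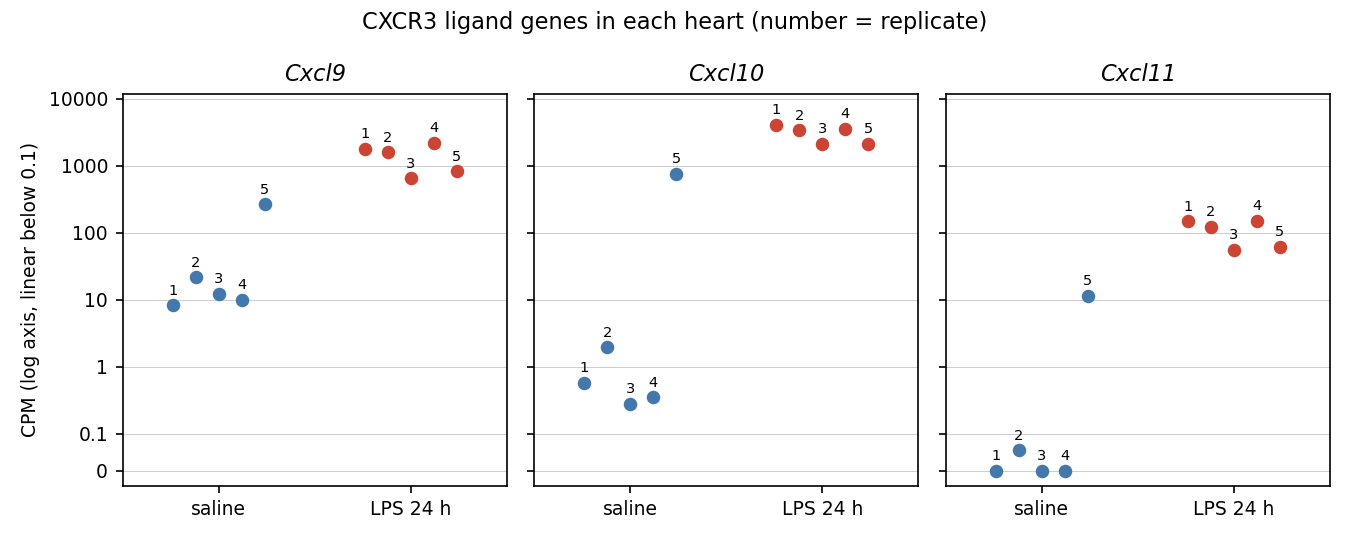
Level of Cxcl9, Cxcl10 and Cxcl11 in each of the 10 libraries, as CPM on a log axis, with saline and LPS hearts side by side. In all 3 genes the 5 LPS libraries lie above every saline library, and saline replicate 5 lies between the other saline libraries and the LPS libraries, with Cxcl10 at 763 CPM against 0.280 to 1.95.

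Saline replicate 5 carried 82.8% of all saline reads of Cxcl9, 99.6% of those of Cxcl10 and 99.5% of those of Cxcl11. Its levels were 20.6-fold, 968-fold and 823-fold those of the mean of saline replicates 1 to 4. They still fell short of every LPS heart, reaching 40.8%, 35.9% and 20.5% of the lowest LPS library. Saline replicate 2 was the highest of the other saline hearts for Cxcl9 and Cxcl10, at 21.5 CPM of Cxcl9 and 1.95 CPM of Cxcl10. No label sets either library apart.

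The balance of the ligands also differed between the groups. Per gene length, in the authors' FPKM (reads per kilobase, scaled by library size), Cxcl10 was 0.268, 0.908, 0.131 and 0.162 in saline replicates 1 to 4 and Cxcl9 was 2.85, 7.47, 4.27 and 3.46. Cxcl9 was thus the leading CXCR3 ligand in these 4 hearts, with 89.0% to 97.0% of the summed FPKM of the 3 genes. In LPS hearts Cxcl10 took 74.0%, 72.8%, 80.3%, 67.2% and 76.3% of the sum, Cxcl9 between 18.5% and 31.1%, and Cxcl11 between 1.25% and 1.69%.

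The ratio of Cxcl10 to Cxcl9 FPKM was 0.0938, 0.121, 0.0307 and 0.0467 in saline replicates 1 to 4 and 3.03, 2.84, 4.34, 2.16 and 3.40 in LPS replicates 1 to 5. Saline replicate 5, at 3.82, lay inside the LPS range, with levels of both genes below every LPS heart. The mean log2 ratio was -2.79 ± 2.76 (SD) in saline and 1.62 ± 0.37 in LPS hearts, a difference of 4.41 (exact permutation test, two-sided, p = 0.0397, n = 5 per group). The call was lost on leaving out any 1 library other than saline replicate 5, with differences of 3.86 to 4.54 and exact p between 0.0635 and 0.0794. Without saline replicate 5 the difference was 5.60 (exact permutation p = 0.0159, the smallest that 5 against 4 libraries can give).

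**Figure D2:**
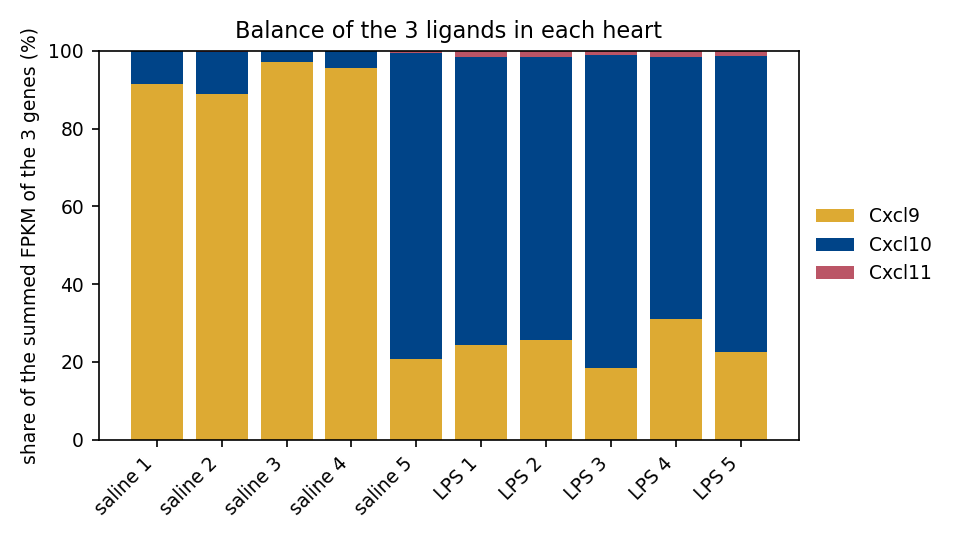
Share of each ligand in the summed FPKM of Cxcl9, Cxcl10 and Cxcl11 in each library, as stacked bars in percent from 0. Cxcl9 fills 89.0% to 97.0% of the bar in saline replicates 1 to 4, whereas Cxcl10 fills 67.2% to 80.3% in the LPS hearts and 78.7% in saline replicate 5.

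Among the 47 chemokine genes in the table, Cxcl10 ranked first in LPS hearts by mean FPKM, at 1460 ± 424 (SD, n = 5), above Cxcl1, which draws neutrophils and stood at 702 ± 266. Cxcl9 ranked 4th at 506 ± 233, between Ccl2 and Ccl7, which draw monocytes, with Ccl2 at 582 ± 163 and Ccl7 at 304 ± 66.8. Cxcl9 differed from each of these neighbours by less than its own SD. Cxcl11 ranked 12th at 30.6 ± 13.1. In saline replicates 1 to 4 the ranks of Cxcl9, Cxcl10 and Cxcl11 were 9, 20 and 37. The 3 ligands made up 2.24% to 5.04% of all chemokine FPKM in those hearts, 46.6% in saline replicate 5 and 38.9% to 48.4% in LPS hearts.

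The LPS hearts were far from uniform in these genes. Cxcl9 had a coefficient of variation (CV) of 46.3% and differed 3.37-fold between the highest and lowest LPS heart. Cxcl11 had a CV of 43.0% and a 2.70-fold range, and Cxcl10 a CV of 29.1% and a 1.92-fold range. Over 9820 genes with at least 5 CPM in LPS hearts the median CV was 14.1%. The SD of log2 CPM was lower than that of Cxcl9 in 99.2% of these genes, than that of Cxcl11 in 98.9% and than that of Cxcl10 in 93.6%. Such spread was not particular to the ligands or to LPS. In saline replicates 1 to 4 the CV was 45.7% for Cxcl9 and, at 5 to 35 reads per heart, 99.6% for Cxcl10. Among other genes that rose, the CV over LPS hearts was higher for Socs1 (66.5%), Il6 (61.6%) and Irf8 (56.2%) and lower for Ccl5 (14.4%) and Irf9 (6.5%).

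LPS replicates 3 and 5 held the least of all 3 ligands. Cxcl9 was highest in replicate 4, followed by 1, 2, 5 and 3. Cxcl11 was highest in replicates 1 and 4, at 150 and 151 CPM and so not distinguishable, followed by 2, 5 and 3. Cxcl10 was highest in replicate 1, followed by 4, 2, 3 and 5, with the last 2, at 2127 and 2124 CPM, too close to order. Relative to the LPS mean, replicate 3 was at 46.1% for Cxcl9, 69.5% for Cxcl10 and 51.7% for Cxcl11, and replicate 5 at 58.8%, 69.4% and 57.1%.

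Some other measures set the same libraries apart. LPS replicates 3 and 5 had the lowest positions of the LPS group on component 1, 43.7 and 46.8 against 53.8 to 55.0. Component 1 is built on the genes of highest variance, so it is not separate from genes that move like the ligands. LPS replicates 3 and 5 also had the highest summed level of 8 neutrophil markers, 39.0 and 34.0 CPM against 13.3 to 19.8 CPM. Their mitochondrial shares, 24.3% and 27.6%, lay inside the LPS range of 22.3% to 31.2%. Ifnb1, the type I interferon gene interferon-β, had 12, 6, 0, 5 and 0 reads in LPS replicates 1 to 5 and none in saline, so both hearts low in the ligands had no read, at counts where 0 allows up to 3. The part of these measures in the spread of the ligands was not tested.

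**Figure D3:**
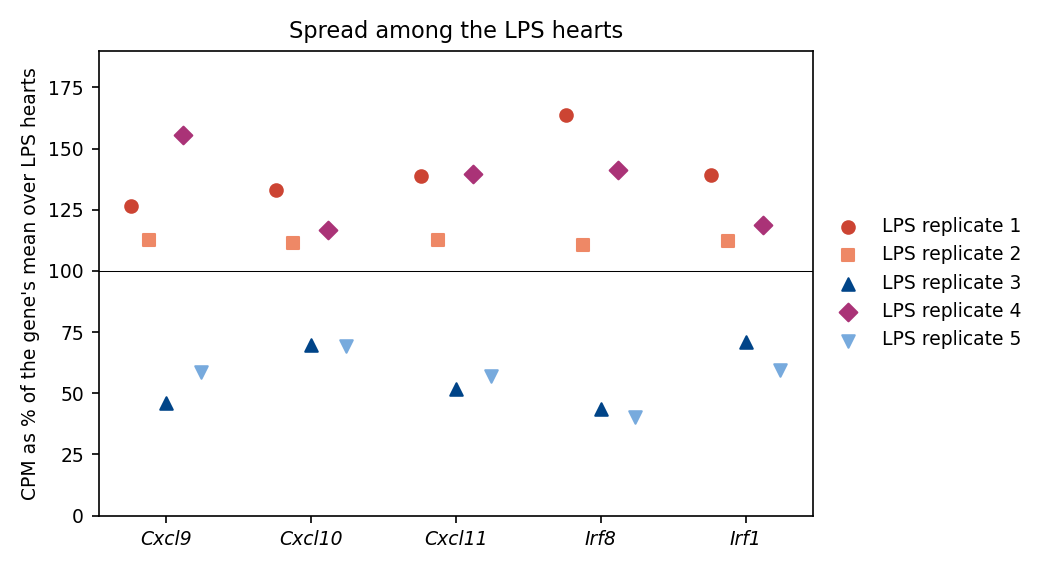
Level of the 3 ligands, Irf8 and Irf1 in each LPS heart, as percent of the gene's mean over the 5 LPS hearts, 1 point per library. For Cxcl9 the points run from 46.1% to 156%, and LPS replicates 3 and 5 are the lowest for all 3 ligands and for Irf8 and Irf1.

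The receptor itself was barely present. Cxcr3 had 4, 7, 5, 7 and 1 reads in saline replicates 1 to 5 and 0, 2, 0, 0 and 0 reads in LPS replicates 1 to 5, too few to be tested. The counts were thus not higher where the ligands were high, with 24 reads over all saline and 2 over all LPS hearts. With no filter on low counts, edgeR gave a log2 fold change of -2.90 (adjusted p = 0.0313).

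Of the other proteins that bind or cut these ligands, Ackr1 and Dpp4 changed and Ackr3 did not pass the test. Ackr1, a decoy receptor of venular endothelium and red cells that binds many inflammatory chemokines, had 6, 6, 6, 3 and 14 reads in saline and 50, 67, 117, 67 and 85 in LPS hearts. The groups did not overlap, and Ackr1 rose by 3.78 ± 0.34 on the log2 scale (SE, adjusted p = 1.60e-06, edgeR). Dpp4, the peptidase that trims and inactivates CXCR3 ligands, fell from 12.3 ± 1.45 to 7.64 ± 1.30 CPM (SD, n = 5), a log2 fold change of -0.68 ± 0.14 (adjusted p = 0.00168), without overlap. Ackr3, a scavenging receptor for CXCL11 and CXCL12, was at 88.8 ± 5.82 and 93.2 ± 18.8 CPM, a log2 difference of 0.07 ± 0.13 (adjusted p = 0.694), whose sign turned under upper quartile (-0.08) and total count scaling (-0.20) and which was near 0 without LPS replicate 3.

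In the authors' deposited table of Reactome terms, Cxcl9 and Cxcl10 were listed as up and Cxcr3 as down in 5 of 1016 terms, and Cxcl11 appeared in none. The closest of these terms in the authors' deposited table, on chemokine receptors binding chemokines, held 16 differential genes of 43, 11 up and 5 down, with an adjusted p of 0.928.

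Most tested genes of the routes that lead from interferon and NF-κB to the ligands rose. Of 21 genes from interferons and their receptors through kinases and transcription factors, the NF-κB subunits Nfkb1 and Rela among them, to the feedback inhibitors, 19 were tested, 15 rose and none fell, beside 18.9% rising over all tested genes. Their median log2 fold change was 1.63, against -0.02 over all genes. Without saline replicate 5, 15 rose, 1 fell, the kinase gene Tyk2, and the median was 2.01, beside 22.9% falling over all genes.

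Reads of the ligands' main inducer were almost absent. Ifng, interferon-γ, had 1, 0, 0, 0 and 0 reads in saline and 2, 2, 0, 1 and 4 in LPS hearts, too few to be tested. No heart had more than 4 reads, and the groups overlapped. Ifnb1, given above, was not tested either, and with no filter on low counts edgeR gave it an adjusted p of 0.00818.

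Irf1, an interferon-γ-induced activator, stood at 20.8, 36.1, 22.3, 20.5 and 206 CPM in saline and at 422, 340, 215, 360 and 180 CPM in LPS hearts. Here saline replicate 5 lay above LPS replicate 5, so the groups overlapped, and LPS replicates 3 and 5 were again the lowest. Irf1 rose by 2.31 ± 0.78 on the log2 scale (SE, adjusted p = 0.0447, edgeR), a call lost on leaving out any 1 library other than saline replicate 5 (adjusted p 0.0516 to 0.0970), and by 3.61 without that library.

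The largest rises of the route belonged to Socs1, Usp18 and Irf7. Socs1, an inhibitor of JAK kinases, stood at 1.10, 1.56, 1.07, 0.405 and 16.7 CPM in saline and at 129, 67.6, 30.7, 59.8 and 24.9 CPM in LPS hearts. The groups did not overlap, LPS replicates 3 and 5 were lowest, and Socs1 rose by 3.92 ± 1.03 on the log2 scale (SE, adjusted p = 0.0163, edgeR). Usp18, which restrains type I interferon signalling, rose by 3.73 ± 0.98 (adjusted p = 0.0162), and Irf7, which amplifies it, by 2.85 ± 0.80 (adjusted p = 0.0217), both without overlap. Leaving out saline replicate 5 gave 5.90 for Socs1, 5.15 for Usp18 and 3.71 for Irf7. Irf8, a factor of myeloid cells chosen after its values were seen, had 104, 70.3, 27.8, 89.8 and 25.5 CPM in LPS hearts, low in the same replicates as the ligands. Usp18 and Irf7 were also lowest in LPS replicates 3 and 5, but not every route gene was. Ifngr1 was highest there, at 112, 112, 145, 105 and 145 CPM in LPS replicates 1 to 5. Irf9 was nearly even, at 140, 159, 159, 153 and 140 CPM. Ifngr2, Ifnar1, Tyk2 and Irf3 did not pass the threshold, at log2 differences of 0.04, 0.12, -0.31 and -0.21. The first 2 turned below 0 under upper quartile and total count scaling. Tyk2 and Irf3 fell past the threshold under upper quartile (adjusted p = 0.0126 and 0.0322, edgeR) and total count scaling (0.0073 and 0.0131). Irf3 also did so without LPS replicate 3 (adjusted p = 0.0493). That no route gene fell with all libraries in thus depends on the scaling.

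**Figure D4:**
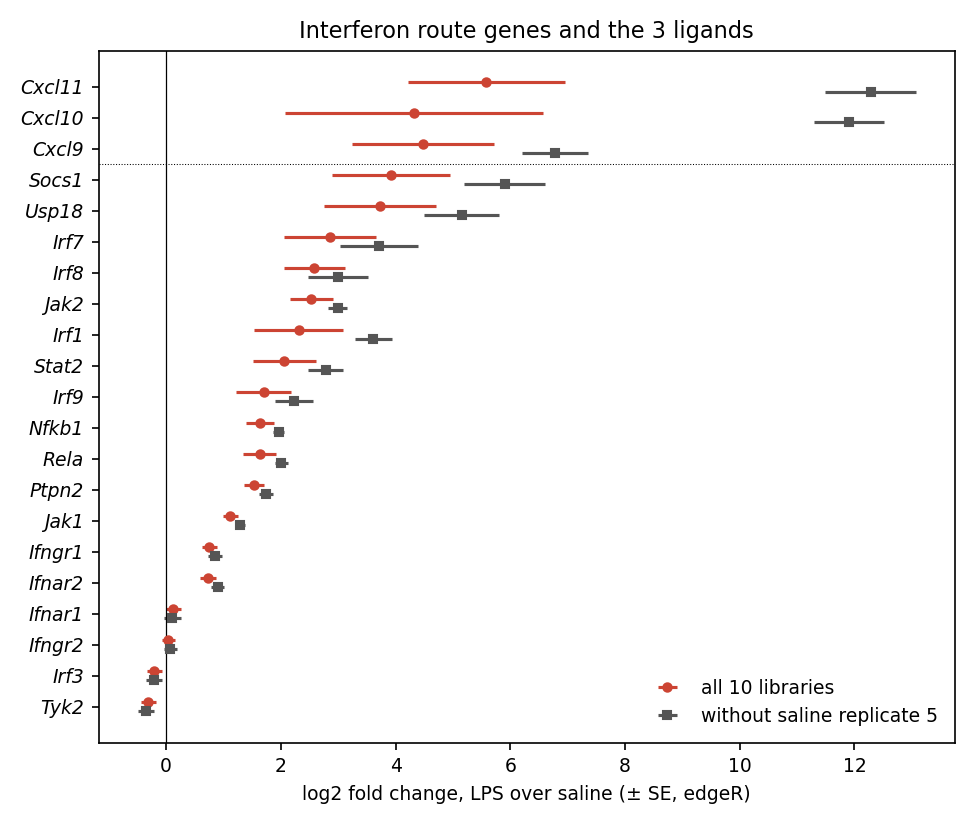
Log2 fold change of LPS against saline hearts for the 3 ligands and 18 of the 19 tested genes of the interferon route, with standard errors, with all libraries and without saline replicate 5. Cxcl10 moves from 4.32 to 11.91 and Cxcl11 from 5.58 to 12.28 when that library is left out, and Irf1 from 2.31 to 3.61.

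Of 6 cytokine genes whose products drive interferon-γ from lymphocytes, the 4 that could be tested all rose, with a median log2 fold change of 2.40, beside 18.9% rising over all tested genes. Il15, a growth factor of natural killer and memory T cells, rose from 28.2 ± 6.91 to 119 ± 27.1 CPM (SD, n = 5), by 2.08 ± 0.19 on the log2 scale (SE, edgeR). Il27, a subunit that pairs with EBI3, stood at 0.0522, 0, 0, 0.0579 and 0.535 CPM in saline and at 16.6, 6.61, 3.25, 9.09 and 3.27 CPM in LPS hearts. The groups did not overlap, and it rose by 5.88 ± 0.84 on the log2 scale (SE, adjusted p = 0.000360, edgeR), or 7.77 without saline replicate 5. Its partner Ebi3 rose by 2.65 ± 0.34 and Il18 by 2.16 ± 0.42. Il12b, not tested, had 0, 0, 1, 0 and 8 reads in saline and 58, 10, 10, 35 and 5 in LPS hearts, and Il12a, not tested, had at most 3 reads in any library. Il27 and Il18 passed the filter on low counts through the LPS hearts, with 11 and 51 reads over saline against 534 and 179 over LPS hearts. That all tested genes of this list rose is thus partly set by the filter.

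Markers of the cells that the ligands attract were scarce. In bulk tissue, fewer cells of a type and less RNA per cell cannot be told apart. The defining T and natural killer cell markers Cd3d, Cd3e, Cd3g, Ncr1 and Klrb1c together had 48 reads over the 5 saline and 25 over the 5 LPS hearts, and none of the 5 was at 0 throughout. Of 22 genes on this list 7 were tested, 4 rose and none fell, beside 18.9% rising and 21% falling over all tested genes. Those were Ccl5, Lck, Gzmb and Klrk1. The same number rose, and Cd4 fell, when saline replicate 5 was left out. Lck and Gzmb passed the filter on low counts through the LPS hearts, with 30 and 10 reads over saline against 638 and 148 over LPS hearts. Untested genes of the list went either way, such as Cd3g (19 reads in saline and 2 in LPS hearts) and Prf1 (15 and 35). The counts of rising and falling genes thus depend in part on that filter. Ccl5, a chemokine that many cells make after stimulation, rose by 5.46 ± 0.91 on the log2 scale (SE, edgeR), or 7.39 without saline replicate 5, and made up most of the list's sum in LPS hearts and saline replicate 5. The sum was 4.75 to 13.9 CPM in saline and 113 to 167 CPM in LPS hearts. Lck, a kinase of the T cell receptor, went from 0.343 ± 0.160 to 9.44 ± 6.57 CPM (SD, n = 5) and rose by 4.76 ± 0.65 (adjusted p = 0.000239, edgeR). Klrk1, an activating receptor of natural killer cells, rose by 1.29 ± 0.47 (adjusted p = 0.0396), a call that was lost on leaving out any of 7 libraries.

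Markers of cells that can make the ligands fell or changed in part. The 10 endothelial markers all fell, with a median log2 fold change of -0.79, beside 21% falling over all tested genes. Esam did not pass without saline replicate 2 (adjusted p = 0.0772) or without LPS replicate 4 (adjusted p = 0.0650). The markers' sum was 1210 to 1990 CPM in saline and 768 to 949 CPM in LPS hearts. Of 12 macrophage markers 2 rose and 4 fell, and their sum was 518 to 758 CPM in saline and 445 to 673 CPM in LPS hearts. The rise of Fcgr1 and the fall of C1qc among them were lost on leaving out most single libraries. Of 7 fibroblast markers 2 fell and none rose, and none of 8 cardiomyocyte markers passed the threshold. Under total count scaling Myh6, Myl2, Pln, Tnni3 and Tnnt2 fell past it (adjusted p = 0.036, 0.00946, 0.0353, 0.018 and 0.0059, edgeR), and Myl2 also under upper quartile scaling (0.0492). So did the fibroblast markers Dcn, Gsn and Tcf21 (0.0412, 0.0139 and 0.0247) and the macrophage markers C1qa and Cd68 (0.0205 and 0.0131) under total count scaling. Of 5 tested dendritic cell markers 1 fell. Neutrophil markers summed to 1.29 to 23.1 CPM in saline, where saline replicate 5 was the highest and the other 4 were at most 4.01 CPM, and to 13.3 to 39.0 CPM in LPS hearts, where 2 of 4 tested rose, S100a8 and Csf3r, and all 4 without saline replicate 5. The calls of both were lost on leaving out saline replicate 1 (adjusted p 0.0735 and 0.0832), and on leaving out several other single libraries. The 4 B cell markers were too low to be tested. The part of these cell types in the ligands' difference was not tested.

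The ligands' own neighbourhood did not move with them to the same extent. Of 21 other genes within 250 kb of the cluster, 9 were tested, of which 4 rose and 1 fell, beside 18.9% rising and 21% falling over all genes. Their log2 fold changes ran from -0.51 to 0.95. The nearest on either side, Sdad1 and Nup54, were at 0.76 ± 0.13 (adjusted p = 0.000311, edgeR) and 0.01 ± 0.13 (adjusted p = 0.943), the latter below 0 under upper quartile and total count scaling. The fall, of Stbd1, did not pass without saline replicate 2 (adjusted p = 0.0562). Naaa, which did not pass with TMM, fell past the threshold under upper quartile (adjusted p = 0.0372, edgeR) and total count scaling (0.00584).

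Art3, an ecto-enzyme gene on the plus strand (chr5:92331827-92414628), spans Cxcl10 and Cxcl11, and 133 exon bases of Cxcl10, or 5.91%, are shared with its exons. Art3 had 3248, 2617, 3670, 3760 and 4713 reads in saline and 4414, 4168, 4423, 4208 and 3773 in LPS hearts, ranges that overlap, and rose by 0.58 ± 0.15 on the log2 scale (SE, adjusted p = 0.00739, edgeR). Cxcl10 had 5 to 35 reads in saline replicates 1 to 4, which held 2617 to 3760 reads of Art3, so at most 35 reads in any of them can have come from Art3. The processed pseudogene Gm2673, which shares 1582 exon bases with Cxcl11 on the other strand, had no read in any library. Strand use in counting is unknown, so reads of overlapping exons cannot be told apart.

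**Figure D5:**
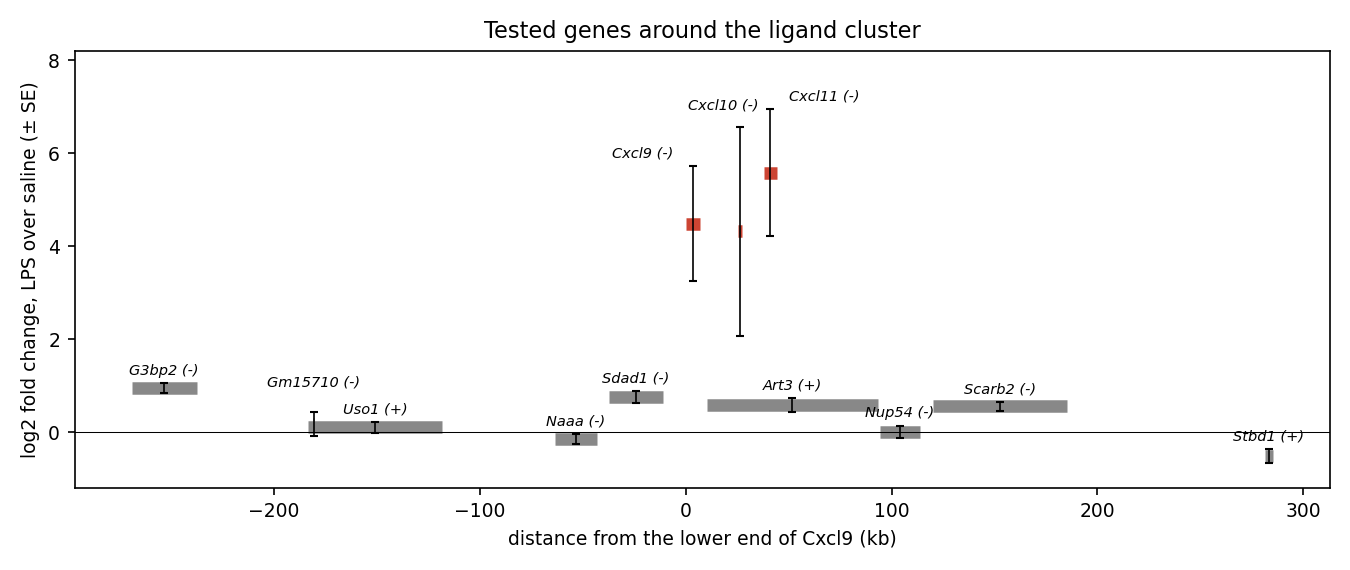
Log2 fold change with standard error of the 3 ligands and the tested genes within 250 kb, by distance from the cluster in kb. The 3 ligands lie at 4.32 to 5.58, and the other 9 genes between -0.51 and 0.95.

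Genes that varied most like the ligands over the 10 libraries were found by the root mean square difference of mean-centred log2 CPM, over genes of at least 5 mean CPM. For Cxcl9 they were Rsad2 (0.312), Mmp13 (0.399), Mx2 (0.404), Ifit2 (0.447) and Ptgs2 (0.450), where the median over all genes was 3.23. Rsad2, Mx2 and Ifit2 are interferon-stimulated antiviral genes, and Mx2 and Ifit2 did not pass the threshold themselves (adjusted p = 0.0527 and 0.0644, edgeR). For Cxcl10 no gene came as close, the nearest being Il6 at 1.37, Acod1, Ptx3, Cxcl11 and Csf3 (1.61), against a median of 5.78. For Cxcl11 they were Acod1 (0.349), the enzyme that makes itaconate, then Cxcl1, Csf3, Ccl4 and Il6 (0.556), against a median of 4.51. Over saline replicates 1 to 4, Cxcl11, Acod1, Csf3, Ccl4 and Il6 had 1, 5, 0, 7 and 1 reads in all. Their log2 CPM there is close to what the prior count of 2 sets, so likeness in these hearts is partly built in. Without saline replicate 5, 4, 5 and 4 of the 5 genes were found again for Cxcl9, Cxcl10 and Cxcl11.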

How the data were processed

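RNA from 10 mouse hearts was sequenced after preparation with the TruSeq RNA kit named in the labels. The authors deposited read counts per gene for 54532 Ensembl identifiers. Bowtie 0.12.2 and the mm9 build are named in the submitters' processing notes, with no role. For the counting tool and strand use, a statement was not given in the sources used here. Coordinates are given as GRCm38, since 54409 identifiers were found in GENCODE M21 and 53499 had the same start and end. The authors' FPKM columns scale counts by gene length and library size, by a scaled size of 0.775 to 1.09 times the total count. They were used for levels between genes and for the ratio. The lengths used, 3016 bases for Cxcl9, 2252 for Cxcl10 and 3794 for Cxcl11, take in retained-intron transcripts of Cxcl9 and Cxcl10. Those of Cxcl11 include 1582 bases shared with Gm2673. Shares and ranks between genes depend on these lengths. Another 20 columns of per-sample values, were not used. They repeat the FPKM values, but name the LPS columns for 3 h where the labels give 24 h. The p-values of a deposited Reactome table stand as the authors' own values.

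Counts were tested with edgeR 4.0.16 in R 4.3.3 (filterByExpr with minimum count 10 and minimum total 15, TMM scaling, quasi-likelihood F-test with robust dispersion). Benjamini-Hochberg adjustment ran over the 13864 genes kept, with a threshold of 0.05, and only genes past it are said to rise or fall. Standard errors come from the F statistic, and CPM are counts over total count times TMM factor. Log2 CPM used a prior count of 2. The test was checked on simulated data that held no library lying between the groups. Of 50 genes changed at each size, it recovered 14 at 1.5-fold, 33 at 2-fold, 48 at 4-fold and 47 at 8-fold. Of its 156 calls there, 14 were false. Alternatives were other scalings and filters, DESeq2 1.42.0, limma 3.58.1 voom, a replicate block, leaving out each library, and, chosen after seeing the data, the likeness of genes without saline replicate 5. Nothing says more of the replicates than a mouse number, so p-values measure the spread between these libraries. Counting intervals are exact, at 95%, and like the floor of 3 reads cover counting error only.

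The members and gene lists were chosen with earlier results of these data known. Named genes were the ligands, their receptor and clearance genes, Ifng, Irf1 and the 3 largest rises of the interferon route and the largest fall past the threshold, the 6 interferon-γ-inducing cytokines, defining lymphocyte markers, overlapping and nearest genes, the 5 genes most like each ligand and the chemokines next in rank. One named gene is left out here, and a few others were named after their values were seen.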

Additional observations from a re-analysis of the deposited data

Results flagged for a closer look

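In 8 of 26 sets of 5 libraries tested, saline replicate 5 was the highest and lay far from the others, judged by its gap to the nearest library over the group's whole range, with Dixon's critical value of 0.71. Chance alone flags about 1 set in 20, and the sets share their libraries. The gap was 0.949 of the range for Cxcl9 CPM, 0.998 for Cxcl10 and 0.995 for Cxcl11. It was 0.715 for the log2 ratio of Cxcl10 to Cxcl9 FPKM. It was 0.916 for Irf1, 0.892 for Il27, 0.882 for Il12b and 0.753 for Ackr1, all in CPM. The cause was not tested.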

How the results depend on the processing

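Cxcl9 and Cxcl11 kept their direction and their side of the threshold under all 18 alternatives, at log2 fold changes of 4.20 to 6.78 and 5.25 to 12.28. Cxcl10 kept its direction, but its adjusted p ran from 6.48e-07 to 0.244. It passed the threshold with DESeq2 (4.35, adjusted p = 0.0285), limma voom (10.27, adjusted p = 0.000994) and the replicate block (11.07, adjusted p = 0.0424). Leaving out 1 library gave 4.0 to 11.91, and only the highest, without saline replicate 5, passed. The difference in the log2 ratio of Cxcl10 to Cxcl9 ran from 3.86 to 5.60 on leaving out 1 library. Pairing by replicate number, where 5 pairs cannot give a p below 0.05, gave 4.41 with an exact sign-flip p of 0.125. The numbers are not known to pair the mice: only replicate 3 correlated best with its own number, and residual correlations were -0.07 to 0.18. Under the block Cdh5, Irf1, Klrk1 and C1qc missed the threshold (adjusted p = 0.0529, 0.0552, 0.0640 and 0.0745). The CV of each ligand among LPS hearts moved by less than 1.5 times. Genes past the threshold numbered 4785 to 7485 against 5533. Rising and falling genes were 2617 and 2916 with TMM, 1992 and 4407 with upper quartile and 1711 and 5774 with total count scaling, whose median log2 fold changes over all genes were -0.02, -0.18 and -0.30. The causes were not tested. Depth limits what can be said of Cxcl11 in saline replicates 1 to 4 and of Cxcr3, Ifng and Ifnb1 in any library.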
